A study of Rattus norvegicus with 48 samples.

Results

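Kidneys of Dahl salt-sensitive rats fed 8% NaCl were compared with kidneys of rats of the same strain fed 0.1% NaCl, all of which had been given a control antibody. The comparison used 12 of the 48 arrays of the series, namely the 6 kidney arrays named as high-salt control and the 6 named as low-salt control. All 12 rats were male SS/JrHsd animals, an inbred strain, put on their diet at 6 weeks of age for a stated 8 weeks. Each received a mouse isotype IgG1 once, at 50 µg/kg, by a label that places the injection at diet week 7 and at 15 weeks of age, and another label gives an age of 16 weeks. Those times cannot all hold, so how long the diet lasted is uncertain. The labels count 7 treated rats per group, of which 6 were measured. The remaining 12 kidney arrays came from rats on the same diets that were given an antibody to marinobufagenin, a steroid of the body's own that blocks the sodium pump. Both control groups carried the injected IgG1, and the labels include neither a salt-resistant strain nor an uninjected rat. The labels name the tissue only as kidney, without saying which region was taken.

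The kidney sets body sodium by filtering plasma in the glomerulus and taking most of the filtered sodium back along the tubule, first in the proximal tubule and then in the thick ascending limb, the distal convoluted tubule and the collecting duct. In the Dahl salt-sensitive rat a diet rich in salt raises blood pressure, and the kidney is known to develop glomerular damage, tubular injury, infiltration by leukocytes and deposition of matrix. Injured tubule cells are known to switch on genes such as Lcn2, Spp1, Clu and Timp1 and to lose Egf.

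Each array gave a bead intensity for 22523 probes. Values below are log2 intensities after background correction and quantile normalization over the 24 kidney arrays, and the 11534 probes whose detection p was under 0.05 on 6 or more of the 24 were tested. Of these, 8436 carried a gene symbol, for 8282 genes. The number of arrays limits the precision, and each array is a separate rat. An array had 10514 to 11163 detected probes in the 8% NaCl group and 9995 to 10928 in the 0.1% NaCl group. The mean was 10991.8 ± 237.9 in the 8% NaCl group and 10585.3 ± 333.6 in the 0.1% NaCl group (SD, n = 6 each), a difference of 406.5 probes with an adjusted p of 0.0476 over 2 measures (exact permutation test, two-sided). This call was lost when any 1 of 9 of the 12 arrays was left out, all but high-salt replicate 1 and low-salt replicates 5 and 6. The log2 of the 95th percentile of intensity, the other measure, was 11.91 ± 0.47 in the 8% NaCl group and 12.05 ± 0.38 in the 0.1% NaCl group (adjusted p = 0.652, exact permutation test, n = 6 each). Markers of the proximal tubule were bright on every array, with a mean log2 intensity over 8 tested markers of up to 12.71 (median 12.41) in the 8% NaCl group and 12.30 to 12.78 (median 12.56) in the 0.1% NaCl group.

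A pair of arrays stood apart from their groups before any comparison was made. The array of high-salt replicate 1 held 43.7% of the sum of squared deviations within its group and that of low-salt replicate 2 held 57.6%, where equal shares would be 16.7%. They were also the arrays with the fewest detected probes in their groups, 10514 for high-salt replicate 1 and 9995 for low-salt replicate 2. Results are therefore given with all 12 arrays and, where it matters, without this pair.

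The kidneys on the 2 diets differed in many genes, mostly by small amounts. With limma, 1619 of the 11534 probes (14%) passed a Benjamini-Hochberg adjusted p of 0.05, of which 777 (6.74%) were higher and 842 (7.3%) were lower in the 8% NaCl kidneys. The 1175 called probes with a symbol belonged to 1165 genes. In bulk tissue a lower share of a cell type and less RNA per cell cannot be told apart. The balance of directions depended on scaling, since rises were 48% of the calls here, 60.8% of 758 calls after scaling the arrays to a common median and 62.5% of 1741 calls on the authors' deposited scores. No called probe changed sign in any alternative.

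Most called changes were under 1.5-fold, which held for 855 of the 1619 probes (52.8%). A further 590 lay between 1.5 and 2-fold, 142 between 2 and 3-fold, and 32 above 3-fold. The larger the change, the more often it was a rise: 341 of the 855 smallest changes were rises, against 87 of the 142 probes between 2 and 3-fold and 28 of the 32 above 3-fold. The median called rise was 0.63 on the log2 scale (a fold of 1.54), and the median called fall was 0.52 in size. In all, 174 called probes (1.51% of those tested) exceeded 2-fold, 115 upward and 59 downward. A test that asks whether the change exceeds 1.2-fold (limma treat) called 84 probes (0.728%), 49 higher and 35 lower. That count ran from 7 (without high-salt replicate 2 or 5) to 264 (without high-salt replicate 3) when single arrays were left out. It was 0 with the 12 arrays normalized and fitted alone, where 844 probes passed limma treat at an unadjusted p below 0.05. The 2 groups did not overlap at all for 582 probes (5.05%), of which 517 were called.

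**Figure D1:**
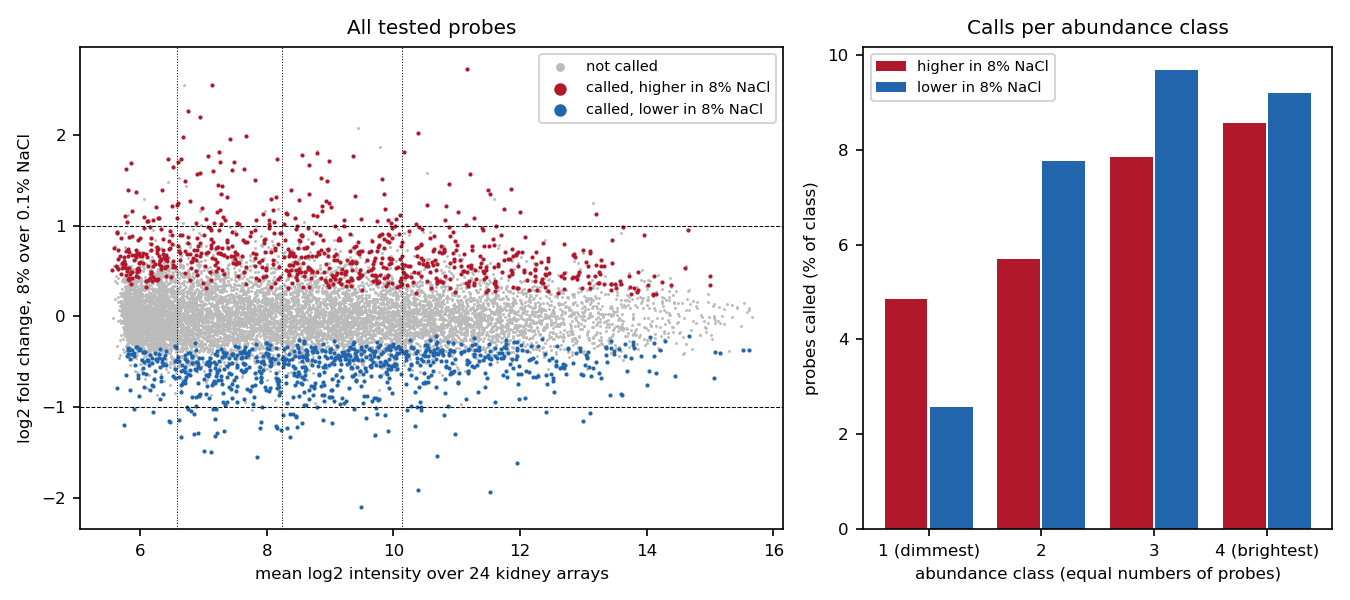
Left, the log2 fold change of 8% over 0.1% NaCl kidneys against the mean log2 intensity over 24 kidney arrays for 11534 probes, with dashed lines at 2-fold and dotted lines between abundance classes. Right, the percentage of probes in each of 4 equal abundance classes called higher or lower in 8% NaCl. Calls above 2-fold lie mostly on the upper side, and the dimmest class has the fewest calls and more rises (4.86%) than falls (2.57%).

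The 12 genes with the largest rises were Serpina3n, Reg3g, Angptl4, Timp1, Fgb, Akr1b8, Ranbp1, Mgst2, Lcn2, Hmox1, Cfd and Cldn4, in falling order. Detection on the 6 low-salt arrays was partial for Serpina3n (4), Reg3g (3), Angptl4 (4), Fgb (5), Akr1b8 (2), Ranbp1 (3) and Mgst2 (3). Their low-salt values thus lie near the detection limit, and their folds are less certain. Calls above 2-fold numbered 174 with background correction and 43 without it. Serpina3n, which encodes a serine protease inhibitor of the acute-phase response, read 7.36, 8.48 and 10.87 (lowest, median and highest log2 intensity) in the 8% NaCl kidneys, against 5.82, 6.11 and 6.76 in the 0.1% NaCl kidneys. All 6 high-salt values lay above all 6 low-salt values, and the difference was 2.55 ± 0.51 (SE), a 5.86-fold rise (limma adjusted p = 0.00351). Fgb, the gene of the fibrinogen beta chain, read 7.83, 8.67 and 10.34 in the 8% NaCl kidneys, against 5.88, 6.88 and 7.30 in the 0.1% NaCl kidneys. Its groups did not overlap either, and the rise was 1.99 ± 0.38 on the log2 scale (limma adjusted p = 0.00266).

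Serpina3n and Fgb were the 2 of the 12 genes whose listed promoter held the palindrome TTCNNNGAA, the spacing bound by STAT factors, which carry the signal of acute-phase cytokines. Promoters of 300 bases, 250 before and 50 after the annotated start, were taken from RefSeq (build GRCr8), which listed 9 of the 12 genes. They are shown because they are the ones that held the palindrome, which is in capitals. The Serpina3n window is chr6:129088142-129088441 on the + strand and the Fgb window is chr2:170700826-170701125 on the - strand.
Serpina3n: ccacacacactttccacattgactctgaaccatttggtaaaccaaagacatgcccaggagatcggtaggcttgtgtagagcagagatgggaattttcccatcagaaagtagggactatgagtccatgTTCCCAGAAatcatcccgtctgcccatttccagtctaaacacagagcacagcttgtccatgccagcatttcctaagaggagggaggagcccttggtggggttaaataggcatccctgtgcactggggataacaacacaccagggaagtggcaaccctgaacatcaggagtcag
Fgb: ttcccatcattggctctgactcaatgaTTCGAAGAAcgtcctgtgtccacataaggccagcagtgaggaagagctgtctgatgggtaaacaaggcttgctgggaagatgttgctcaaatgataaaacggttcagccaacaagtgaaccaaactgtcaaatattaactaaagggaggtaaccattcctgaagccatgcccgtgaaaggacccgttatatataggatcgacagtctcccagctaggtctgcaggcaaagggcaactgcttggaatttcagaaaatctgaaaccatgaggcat
The palindrome reads the same on both strands, and it stood in 8.87% of all 33469 promoters of that length and in 7.04% of the 7242 promoters of genes tested here. It was present in 9 of the 84 promoters (10.7%) listed for called genes that rose over 2-fold and in 2 of the 20 listed for called genes that fell over 2-fold. A match is a description of these letters and was not measured as a bound site.

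Timp1, the tissue inhibitor of metalloproteinases that protects matrix from breakdown, read 10.57, 11.91 and 12.32 in the 8% NaCl kidneys, against 9.51, 9.64 and 9.86 in the 0.1% NaCl kidneys. The low-salt values spanned a narrow range below every high-salt value, and the rise was 4.05-fold (log2 difference 2.02 ± 0.27, limma adjusted p = 0.000553). Lcn2, which encodes the iron-carrier-binding lipocalin of injured tubules and neutrophils, read 9.92, 10.67 and 13.24 in the 8% NaCl kidneys, against 9.04, 9.44 and 9.69 in the 0.1% NaCl kidneys. The groups did not overlap, but high-salt replicates 2 and 5 (13.24 and 12.74) stood well above the other high-salt arrays (9.92 to 10.73), and the rise was 3.50-fold (limma adjusted p = 0.0162). Reg3g, a secreted antimicrobial lectin, followed the same arrays, at 9.30 in high-salt replicate 2 and 9.46 in replicate 5, while high-salt replicate 1 (6.11) fell inside the low-salt range of 5.24 to 6.64. Its mean difference was 2.26 ± 0.43 (limma adjusted p = 0.00255).

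Angptl4, an inhibitor of lipoprotein lipase and the third in size, rose 4.59-fold (log2 difference 2.20 ± 0.41, limma adjusted p = 0.00237). Hmox1, the heme-degrading enzyme, rose 3.49-fold with its highest value in high-salt replicate 4 (12.22) and all low-salt values between 7.84 and 8.44. Cldn4, a tight-junction claudin of the collecting duct, rose 3.41-fold and Ranbp1, a regulator of the Ran GTPase, rose 3.89-fold. In contrast, Akr1b8, an aldo-keto reductase, had a 3.93-fold mean difference (1.98 on the log2 scale) in which 1 array stood far above the rest. High-salt replicate 1 read 11.67, the other high-salt arrays 6.27 to 7.64 and the low-salt arrays 5.34 to 6.32. Without high-salt replicate 1 and low-salt replicate 2 the Akr1b8 difference was 1.32 and no longer passed (limma adjusted p = 0.0878). The same happened to Mgst2, a microsomal glutathione transferase, whose difference was 1.81 with all arrays (limma adjusted p = 0.0404) and 1.61 without the pair (limma adjusted p = 0.0837). The other 10 of the 12 genes were still called without the pair, with Ranbp1 nearest the threshold (limma adjusted p = 0.0488). Left out singly, high-salt replicates 1, 2 and 5 and every low-salt replicate also ended the Akr1b8 call, and high-salt replicates 1, 4, 5 and 6 and low-salt replicates 1, 4 and 5 ended that of Mgst2.

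Cfd encodes complement factor D, a serine protease made largely by fat cells. It read 8.66, 10.07 and 11.02 in the 8% NaCl kidneys, against 7.04, 7.59 and 9.66 in the 0.1% NaCl kidneys, so that low-salt replicates 2 and 6 (9.50 and 9.66) reached the high-salt range. The difference was 1.78 ± 0.51 (limma adjusted p = 0.0219) and was not called when low-salt replicate 1, 4 or 5 was left out. Of 3 adipocyte markers 2 were tested, with a mean log2 intensity of 8.39 to 10.19 in the 8% NaCl kidneys and 7.72 to 9.63 in the 0.1% NaCl kidneys. Adipoq differed by 0.75 (limma adjusted p = 0.0475, and 0.132 without the outlying pair). Among the single-array omissions it kept its call only without high-salt replicate 2 or low-salt replicate 6. The part of the adipocyte markers in the Cfd result was not tested. The largest rise of all belonged to a probe without a gene name, ILMN_1353209, at 2.72 ± 0.49.

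**Figure D2:**
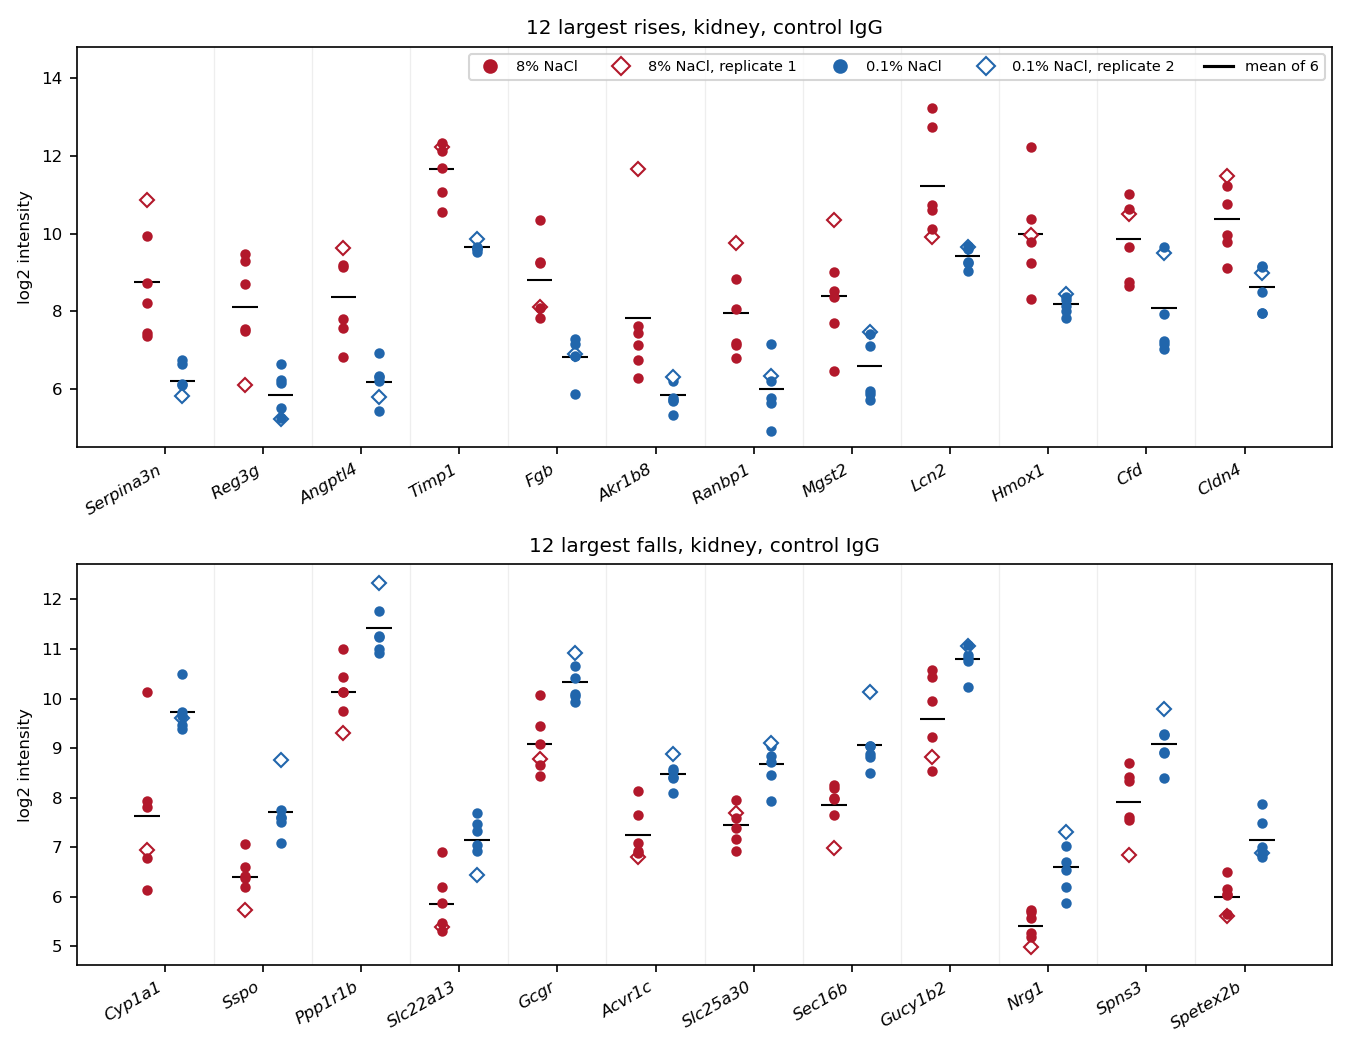
Log2 intensity of the 12 genes with the largest rises (top) and the 12 with the largest falls (bottom) on each of 6 arrays of 8% NaCl kidneys (red, left of each gene) and 6 arrays of 0.1% NaCl kidneys (blue), with lines at group means. Open diamonds mark high-salt replicate 1 and low-salt replicate 2, and the diamond of Akr1b8 at 11.67 stands alone.

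Among the 12 largest falls only Cyp1a1 exceeded 3-fold. Cyp1a1, the cytochrome P450 induced through the aryl hydrocarbon receptor, read 6.13, 7.38 and 10.12 in the 8% NaCl kidneys, against 9.39, 9.63 and 10.50 in the 0.1% NaCl kidneys. Of the high-salt arrays 5 lay between 6.13 and 7.94, and replicate 3 (10.12) lay inside the low-salt range. The fall was 2.10 ± 0.43 on the log2 scale (limma adjusted p = 0.00384). High-salt replicate 3 was in general the array nearest to low salt, being the highest of its group in 43.5% of all falls and the lowest in 42.2% of all rises, where an equal share would be 16.7%.

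The other falls had log2 differences of -1.15 to -1.32. Gcgr, the glucagon receptor, read 8.45, 8.93 and 10.07 in the 8% NaCl kidneys, against 9.93, 10.26 and 10.91 in the 0.1% NaCl kidneys, and fell by 1.26 on the log2 scale (limma adjusted p = 0.00438). A second Gcgr probe fell by 1.31, while another, dim probe differed by -0.20 (limma adjusted p = 0.466). Slc22a13, an organic anion transporter of the tubule, differed by -1.29 ± 0.30 and Slc25a30, a mitochondrial carrier described in kidney, by -1.23 ± 0.20, although a second Slc25a30 probe gave -0.19 (limma adjusted p = 0.653). Falls were also called for Ppp1r1b, the phosphatase inhibitor DARPP-32 (-1.29), Acvr1c, a TGF-beta family receptor (-1.23), Gucy1b2, a subunit of soluble guanylate cyclase (-1.21), and Nrg1, a ligand of the ErbB receptors. A second Ppp1r1b probe gave a smaller fall, -0.49 (limma adjusted p = 0.0053). Nrg1 was below the detection threshold on all 6 high-salt arrays and detected on 5 of 6 low-salt arrays, so that its fold is only bounded, at least 1.65-fold higher in the 0.1% NaCl kidneys (limma adjusted p = 0.00118). Sspo (-1.32), Sec16b (-1.22), Spns3 (-1.18) and Spetex2b (-1.15) made up the rest, and Spetex2b belongs to a family of near-identical copies, which makes its identity uncertain. On the 6 high-salt arrays, Slc22a13 was detected on 3, Spetex2b on 4 and Sspo on 5. All 12 falls were still called without the outlying pair, with log2 differences of -0.83 to -1.99.

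Genes of tubular injury gave the clearest group pattern. Of 11 tested members 9 rose and 1 fell (90.9% called, against 14% of all probes), and the median log2 difference was 1.13, against -0.02 over all tested probes. Besides Timp1 and Lcn2, rises were called for Anxa2 (1.23), Lgals3 (1.15), Cd44 (1.13), Clu (1.13), Spp1 (0.95), Vim (0.71) and Krt8 (0.53). Spp1, which encodes the secreted phosphoprotein osteopontin, read 14.77, 15.14 and 15.77 in the 8% NaCl kidneys, against 13.88, 14.25 and 14.55 in the 0.1% NaCl kidneys, without overlap. Egf, the growth factor made by the thick ascending limb and distal convoluted tubule, read 11.94, 13.15 and 13.67 in the 8% NaCl kidneys, against 13.68, 13.80 and 14.07 in the 0.1% NaCl kidneys. Its groups did not overlap and the fall was 0.85 in size (limma adjusted p = 0.00749). Umod, the most abundant protein of normal urine, gave -0.38 ± 0.14 and missed the threshold (limma adjusted p = 0.0633). The counts of 9 and 1 were the same without the outlying pair. They were 8 and 1 without high-salt replicate 2 or 5, and 6 and 0 when the 12 arrays were normalized and fitted alone. This list and those below were chosen with earlier results of these data known, so their shares are a description.

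Of 17 tested extracellular matrix genes 11 rose (64.7%, against 6.74% of all probes called higher), none was called lower and the median was 0.84. Fibrillar collagens were among them: Col3a1 read 9.71, 9.97, 8.96, 10.51, 10.02 and 10.17 in the 8% NaCl kidneys, against 8.59, 7.94, 8.25, 8.51, 8.58 and 8.56 in the 0.1% NaCl kidneys. Every high-salt kidney lay above every low-salt kidney, and the rise was 2.80-fold (limma adjusted p = 0.000743). Col1a1 rose by 1.31, Col5a1 by 0.84 and Col1a2 by 0.68, and Col6a1, a chain of beaded-filament collagen, by 1.27. The rises covered matrix glycoproteins as well, namely Postn (1.68), Lum (1.70), Fn1 (1.15), Fbn1 (0.75) and Dcn (0.68), and the metalloproteinase inhibitor Timp2 (0.84). The gelatinase Mmp2 differed by -0.33 and Mmp9 by 0.23, and neither passed (limma adjusted p = 0.147 for Mmp2 and 0.436 for Mmp9). At an unadjusted p below 0.05 there were 13 higher and 1 lower. Postn, the matricellular protein periostin, was detected on 5 of 6 high-salt arrays and 1 of 6 low-salt arrays. Without the outlying pair 9 of the 17 were called, Col4a1 (0.74) among them, and Lum, Fn1 and Dcn gave adjusted p-values of 0.0981, 0.0913 and 0.0722 in limma. Leaving out high-salt replicate 1 or low-salt replicate 1, 4 or 5 alone ended the calls of both Lum and Fn1, as did high-salt replicate 4 or 6 for Lum, 2 or 5 for Fn1 and 2 or 5 for Dcn.

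The fibroblast list shares Col1a1 and Dcn with the matrix list, so its only further member is Pdgfra, a growth factor receptor, which rose by 0.54 (limma adjusted p = 0.0195). The 3 markers' mean log2 intensity ran from 10.23 to 11.07 in the 8% NaCl kidneys and had a lowest value of 9.65 and a median of 9.94 in the 0.1% NaCl kidneys, without overlap. Without the outlying pair Pdgfra was not called (0.35, limma adjusted p = 0.0938), nor was Dcn. Tagln, a marker of smooth muscle and of activated fibroblasts, was the only tested gene of the vascular smooth muscle list and rose by 0.90 (limma adjusted p = 0.00813). The part of cell numbers in the rise of the matrix genes was not tested.

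Inflammatory and complement genes showed 5 rises among 11 tested members (45.5%, against 6.74% of all probes), no falls and a median of 0.57. C1qb (1.02) and C1qc (0.77) encode chains of complement C1q, Ptprc (0.70) the leukocyte antigen CD45, Icam1 (0.64) an adhesion molecule and Cd74 (0.51) the invariant chain of class II antigen presentation. Ccl2, the monocyte chemokine, averaged 1.18 higher without passing the threshold (limma adjusted p = 0.150). High-salt replicate 1 read 12.12 and the other high-salt arrays 7.65 to 8.66, and Ccl2 was not called without the outlying pair either. Without the outlying pair 6 of 11 were called, C1qa (0.88) among them. Ptprc (limma adjusted p = 0.0481 with all arrays) kept its call among the single-array omissions only without high-salt replicate 1 or 3. C1qc lost its call without high-salt replicate 2 or 5 or low-salt replicate 1, and Cd74 without high-salt replicate 5. Among leukocyte markers, Cd3e of T cells rose by 0.60 (limma adjusted p = 0.012). Cd3g of T cells (0.58), C1qa of macrophages (0.53), Mpo of neutrophils (0.29) and Cd79b of B cells (0.11) were not called with all arrays, although Cd3g was without the pair (0.73, limma adjusted p = 0.0402).

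The transforming growth factor beta list held 2 rises and 1 fall among 10 tested members (30% called, against 14% of all probes) and a median of 0.10. The ligands Tgfb1 (0.95) and Tgfb2 (0.60) rose, and the inhibitory Smad7 fell by 0.90 with no overlap between groups, reading 6.78, 7.22 and 7.38 in the 8% NaCl kidneys and 7.63, 8.17 and 8.43 in the 0.1% NaCl kidneys. The target Ccn2 differed by 0.05 ± 0.18. Without the outlying pair Tgfb1 no longer passed (0.73, limma adjusted p = 0.0633). Both rises were lost without high-salt replicate 2, and that of Tgfb2 without replicate 5.

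Oxidative stress genes moved in both directions, with 2 rises and 3 falls among 12 (41.7% called, against 14% of all probes) and a median of -0.01. Hmox1 and Cybb (0.84), the catalytic subunit of the phagocyte NADPH oxidase, rose, whereas Nox4 (-1.09), the NADPH oxidase of renal tubules, and both subunits of glutamate-cysteine ligase, Gclm (-0.65) and Gclc (-0.37), fell. The fall of Nox4 gave an adjusted p of 0.0781 in limma without the outlying pair, where catalase, Cat, was called instead (-0.39, limma adjusted p = 0.0499). Without high-salt replicate 2 or 5 the list held 1 rise and 1 fall, those of Hmox1 and Gclm. Cybb was also lost without high-salt replicate 4, Gclc without replicate 1, and Nox4 without high-salt replicate 1 or low-salt replicate 1, 5 or 6.

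Of 14 sodium transport genes 1 passed (7.14%, against 14% of all probes), the proximal sodium-hydrogen exchanger Slc9a3, which fell by 0.78 (limma adjusted p = 0.0154, and 0.0755 without the outlying pair). None rose, and at an unadjusted p below 0.05 the count was also 0 higher and 1 lower in limma. The epithelial sodium channel subunits differed by -0.32 (Scnn1a), -0.05 (Scnn1b) and 0.05 (Scnn1g), and the Na/K-ATPase subunit Atp1b1 by 0.10 ± 0.07, none of them called. Of 7 genes of the renin-angiotensin-aldosterone system 2 fell (28.6%, against 7.3% of all probes called lower), Agt, the angiotensin precursor (-0.72, limma adjusted p = 0.0257), and Nr3c2, the mineralocorticoid receptor (-0.39, limma adjusted p = 0.0252). Without the outlying pair neither passed, at limma adjusted p = 0.104 for Agt and 0.0604 for Nr3c2, while Hsd11b2, which inactivates glucocorticoids, was called higher (0.38, limma adjusted p = 0.0423). The list of cytochrome P450 and fatty acid oxidation genes held 2 falls among 9 (22.2% called, against 14% of all probes), Acadm (-0.43), a dehydrogenase of medium-chain fatty acids, and Ephx2 (-0.63), the soluble epoxide hydrolase, which gave -0.32 without the pair (limma adjusted p = 0.187) and lost its call without any 1 of 8 single arrays.

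**Figure D3:**
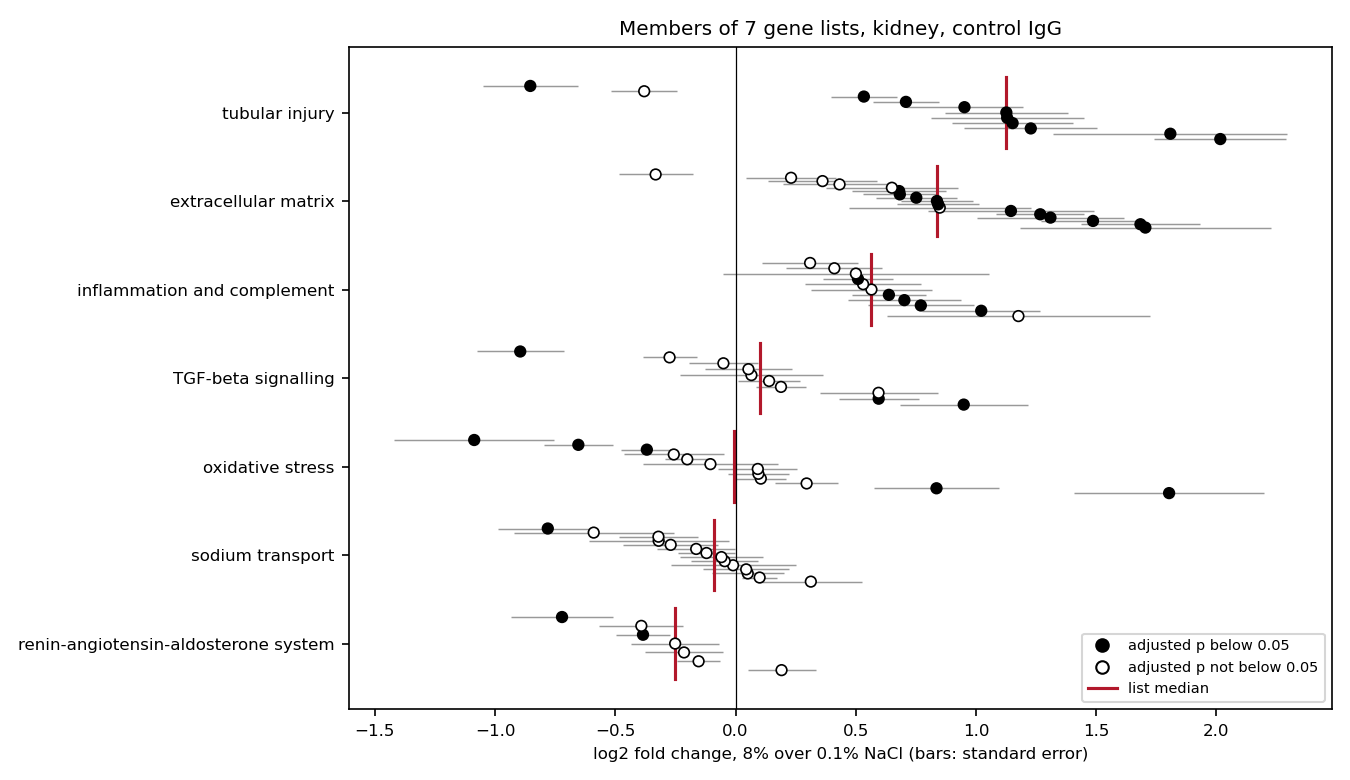
Log2 fold change of 8% over 0.1% NaCl kidneys for each tested member of 7 gene lists, with standard error bars, filled where the limma adjusted p was below 0.05, and red lines at list medians. The medians of tubular injury (1.13), extracellular matrix (0.84) and inflammation and complement (0.57) lie right of 0, and that of sodium transport (-0.09) lies near it.

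Markers of nephron segments were not called with all arrays. None of 8 proximal tubule, 3 thick ascending limb, 2 distal convoluted tubule and 4 principal cell markers, and none of 4 intercalated cell markers, passed in limma. Of all tested probes 14% did. At an unadjusted p below 0.05 the counts were 2, 1, 0, 0 and 2, all lower, where 3430 of the 11534 tested probes passed in either direction. With so few markers per segment, these counts do not show that a segment was unchanged. Without the outlying pair the proximal marker Miox was called lower (-0.43, limma adjusted p = 0.0419). Nphs1, the nephrin of the podocyte slit diaphragm, fell by 0.92 (limma adjusted p = 0.0102). It was the only 1 of 3 tested podocyte markers to be called (33.3%, against 14% of all probes). It gave -0.71 without the outlying pair (limma adjusted p = 0.052). The hemoglobin gene Hbb, the tested erythrocyte marker, ranged from 12.23 to 15.54 in the 8% NaCl kidneys and from 11.10 to 15.45 in the 0.1% NaCl kidneys (limma adjusted p = 0.151).

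Responding probes were spread unevenly over abundance. When the tested probes were split into 4 equal classes by mean intensity over all 24 kidney arrays, 7.42% were called in the dimmest class, 13.5% and 17.5% in the middle classes and 17.8% in the brightest. Called probes of the dimmest class were mostly rises (65.4%), while in the other classes rises made up 42.3%, 44.8% and 48.2% of calls. A probe could pass the filter through the 6 arrays of a single group, and the high-salt arrays detected more probes on average. Rises made up 73.2% of calls among probes detected on 6 to 11 arrays, against 44.1% among those detected on all 24. The part of the filter in the excess of dim rises was not tested. Changes above 2-fold were most frequent in the second class, with 45 rises and 22 falls, and fewest falls were found in the dimmest, with 20 rises and 5 falls. The size of called changes was greatest in the second class, at a median of 0.67 on the log2 scale, and smallest in the brightest, at 0.49. The median standard error was 0.152 in the dimmest class, 0.165 in the second, 0.139 in the third and 0.124 in the brightest. The share called followed detection too, with 16% of probes detected on all 24 arrays, 9.3% of those detected on 12 to 23 and 8.91% of those detected on 6 to 11.

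This gradient changed with the scaling. The share called in the brightest class was 2.39 times that in the dimmest, a ratio that was 4.23 without background correction, 1.44 when the 12 arrays were normalized and fitted alone, and 0.964 after scaling to a common median. Leaving out single arrays kept the ratio between 2.09 and 3.05. Classes cut on the 12 antibody arrays gave 7.8%, 13.1%, 17.4% and 17.8% from dimmest to brightest. The means of those arrays are not part of the contrast, but its normalization, probe filter and estimate of the spread drew on them. Of the called probes 42 were undetected on all 6 low-salt arrays and 13 on all 6 high-salt arrays, and 1333 were detected on all 12. The matching counts over all tested probes are not given, and the high-salt arrays detected more probes on average. These counts are therefore a description and not a result about the called probes.

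The array weight estimated by limma, which is small for an array that fits the group means poorly, was 0.23 for high-salt replicate 1 and 0.09 for low-salt replicate 2, while the other 10 arrays had 0.60 to 2.30. Their correlation with the mean of the other arrays of their group was 0.961 for high-salt replicate 1 and 0.946 for low-salt replicate 2, against 0.988 to 0.993 for the others. High-salt replicate 1 was the lowest or highest of its group in 57.8% of called probes and low-salt replicate 2 in 72.5%, where an equal share would be 33.3%. High-salt replicate 1 was the lowest of the high-salt group in 53.1% of falls and the highest in 33.6% of rises, but also the lowest in 19.9% of rises, where an equal share would be 16.7%. Low-salt replicate 2 was the lowest of the low-salt group in 56.5% of rises and the highest in 56.4% of falls, and the opposite extreme in 16.9% of rises and 15.3% of falls.

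Leaving out both arrays left 1340 probes called, 712 higher and 628 lower. Of the original 1619 calls 1051 (64.9%) remained and 289 were new, and of the 174 probes called above 2-fold 157 were still called, at whatever fold. The median log2 difference of the originally called rises became 0.52 in place of 0.63, and that of the falls -0.42 in place of -0.52. Falls above 2-fold dropped to 31, against 59 with all arrays, while rises above 2-fold numbered 112, against 115. Removing high-salt replicate 1 alone left 1302 calls and removing low-salt replicate 2 alone left 1542. Fewer calls were left after removing either of 2 arrays that do not stand apart, high-salt replicate 2 (1065) or replicate 5 (1073), and more after removing high-salt replicate 3 (1879). Down-weighting by limma array weights gave 2129 calls with smaller changes, at medians of 0.48 for the original rises and -0.40 for the original falls.

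**Figure D4:**
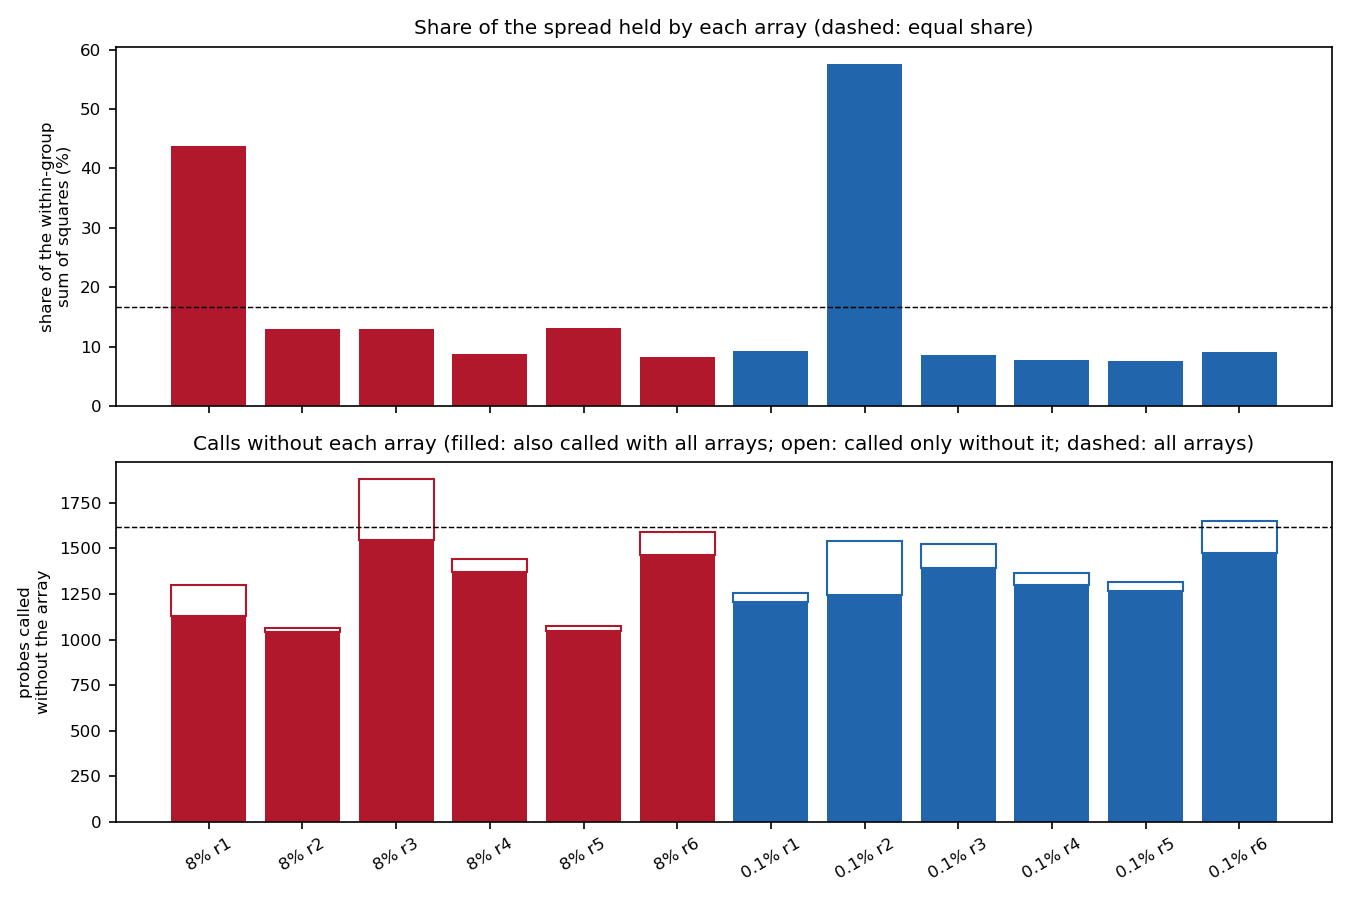
Top, the percentage of the within-group sum of squares held by each of 6 arrays of 8% NaCl kidneys (red) and 6 of 0.1% NaCl kidneys (blue), with a dashed line at the equal share of 16.7%. Bottom, the number of probes called without each array (filled, also called with all arrays, and open, called only without it), with a dashed line at the 1619 called with all arrays. High-salt replicate 1 and low-salt replicate 2 hold 43.7% and 57.6%, yet the lowest counts are those without high-salt replicates 2 and 5.

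The response was uneven among the high-salt rats. Measured against the low-salt mean, the median over the called rises was 0.68 in high-salt replicate 1, 0.76 in replicate 2, 0.38 in replicate 3, 0.56 in replicate 4, 0.79 in replicate 5 and 0.47 in replicate 6. The pair formed by replicates 2 and 5 gave the highest readings for 38 of the 115 rises above 2-fold (33%), more than any other pair, and for 249 of all 777 rises (32%). Lcn2 was of this kind. Lum was not, reading 9.85, 10.29 and 10.11 in replicates 1, 4 and 6 and 6.71 to 8.14 in the other high-salt arrays, against 6.73 to 7.98 in the low-salt arrays. Falls were ordered otherwise. Their median was -0.80 in replicate 1, -0.60 in replicate 2, -0.31 in replicate 3, -0.43 in replicate 4, -0.61 in replicate 5 and -0.38 in replicate 6, and the 2 lowest arrays were replicates 1 and 2 for 27% of the 842 falls, 1 and 5 for 22.8% and 2 and 5 for 13.8%. These readings were looked at after the calls were known and are given as a description.

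Genes of the renal medulla varied widely between arrays of the same diet. Slc14a2, the urea transporter of the inner medullary collecting duct, read on the brighter of its 2 probes 14.85 in high-salt replicate 1 and 5.67 to 11.46 in the other high-salt arrays, against 5.33 to 5.43 in low-salt replicates 1, 4 and 5 and 10.93 to 12.15 in low-salt replicates 2, 3 and 6. The water channel Aqp2 read 14.19 and the osmotic enzyme Akr1b1 15.77 in high-salt replicate 1, each the highest of the 12 arrays. The proximal tubule markers had their lowest mean on the same array. Low-salt replicate 2 differed in other genes: the distal transporter Slc12a3 read 12.48, against 9.40 to 10.46 on the other low-salt arrays, and the adrenal steroid enzyme Cyp11b1 read 7.80, against 5.87 to 6.11. Among 7 tested genes of the medullary osmotic response, 1 was called (14.3%, against 14% of all probes). It was the taurine transporter Slc6a6, which fell by 0.93 (limma adjusted p = 0.0017). With the mean of Aqp2, Avpr2 and Slc14a2 as a covariate, a choice made after seeing these values, 1561 probes were called and 1315 of the original 1619 remained (81.2%).

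The rats given the antibody against marinobufagenin were separate animals, with 6 high-salt and 6 low-salt kidney arrays. Their contrast shared no array with that of the control rats, although normalization, probe filter and spread were taken over all 24 kidney arrays. In these rats the same salt contrast called 212 of 11534 probes (1.84%), 72 higher and 140 lower. Calls in the same direction under both injections numbered 50, which is 3.09% of the control IgG calls and 23.6% of the antibody calls. The probes called as rises under control IgG had a median difference of 0.13 under the antibody, against 0.63 under control IgG, and 73.9% of them were above 0, where 52.5% of all tested probes were. Those called as falls had a median of -0.02 under the antibody, against -0.52 under control IgG, and 54.2% of them were below 0. The probes were selected on the control IgG contrast, not on the antibody contrast, and that selection by itself makes their medians larger under control IgG.

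The difference between the salt effects was itself called for 128 probes (1.11%), of which 102 were among the 1619, 27 of the rises and 75 of the falls. This difference contains the control IgG contrast that selected the 1619, so its calls gather among them by construction. Among the called list members, the difference was called for Timp2 and Postn of the matrix list, for Egf and for Gclm. Timp2 was 0.84 higher on 8% NaCl under control IgG and differed by -0.27 under the antibody (difference 1.11 ± 0.21, limma adjusted p = 0.0151). Egf gave -0.85 under control IgG and 0.37 under the antibody (difference -1.22 ± 0.28, limma adjusted p = 0.0367). Other genes showed a like rise under both injections: Reg3g was 2.26 higher under control IgG and 1.72 under the antibody, Fgb 1.99 and 1.64, and Spp1 0.95 and 1.10, all called in both. For these the difference between the salt effects was not called (limma adjusted p = 0.663 for Reg3g, 0.771 for Fgb and 0.853 for Spp1). The count of 128 varied from 26 (without low-salt replicate 1) to 365 (without high-salt replicate 3) when single arrays were left out, and was 1192 with array weights. The 50 shared calls became 79 without high-salt replicate 1 and 94 without low-salt replicate 2.

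**Figure D5:**
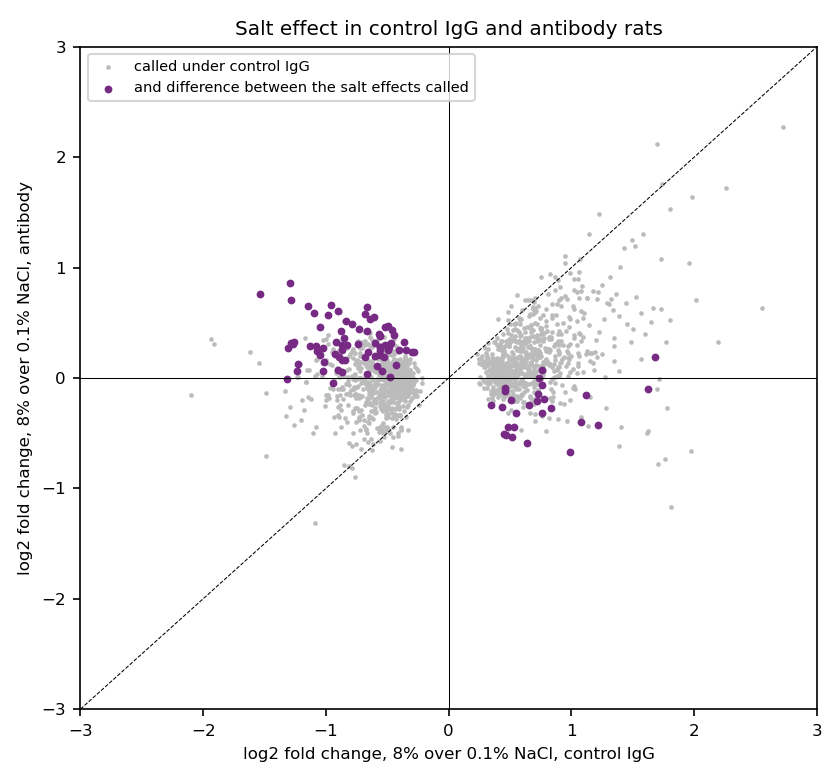
Log2 fold change of 8% over 0.1% NaCl kidneys in rats given the antibody (vertical) against that in rats given control IgG (horizontal) for the 1619 probes called under control IgG, with the line of equal effects dashed. Purple points are the 102 probes whose difference between the salt effects was called. Rises spread to the right, mostly above 0 on the vertical axis (73.9%), and falls are centred near 0 on it.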

How the data were processed

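Total kidney RNA was amplified from an oligo-dT primer and hybridised to single-colour Illumina bead arrays, per the labels' protocols. Per the submitters' processing notes, GenomeStudio 2011.1 was used. The deposited intensities are linear and were not normalized between arrays. Each comes with a deposited detection p-value, whose step is 0.00121. The authors' deposited score is the z-score of log10 intensity within an array (largest difference 0.00649). The chip an array sat on was not given in the sources used here. Platform annotation gave 13793 of 22523 probes 1 gene symbol, 0 several and 8730 none.

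The 24 kidney arrays were processed with neqc (offset 16) in limma 3.58.1 and R 4.3.3, and 4 group means were fitted with lmFit and eBayes, with 20 residual degrees of freedom. For a gene with several probes the probe with the smallest p was used. Named genes are the 12 largest rises and 12 largest falls among called genes and every called member of the fixed lists. The members and lists were chosen with earlier results of these data known, and the groups in the last part were written down after seeing the values. A fold of a probe undetected throughout a group is a lower limit, taken against the lowest detected signal of each array (or the probe's own signal, where that is higher). Replicate numbers did not pair the animals (correlations of same-numbered arrays -0.38 to 0.16). In simulated data with independent normal errors, the fit called 95% of 2-fold changes and 39% of 1.41-fold changes (100 probes each). It also called 5 unchanged probes. That simulation held no outlying array, so it does not measure the error rate in these data. The alternatives changed the background step, the scaling (the authors' scores included), the dim-probe filter and which arrays were fitted, and added array weights, the spread model, a replicate block, brightness or medullary genes as a covariate and leaving out arrays.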

Additional observations from a re-analysis of the deposited data

Results flagged for a closer look

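Values set apart from the other 5 of their group by Dixon's criterion were found in 5 of 8 array measures and in 13 of 132 groups of gene values, where chance gives about 1 in 20. High-salt replicate 1 had 10514 detected probes, against 11038 to 11163 on the other high-salt arrays, a log2 95th percentile of 10.96, against 11.98 to 12.23, and a first principal component of -43.4, against -2.23 to 11.6. Low-salt replicate 2 lay at -51.1 on the first component, against 0.97 to 16.5 on the other low-salt arrays, and at -51.2 on the second, against -15.1 to -1.03.

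Of the 13 gene values, 4 belonged to high-salt replicate 1. Akr1b8 read 11.67 there, and Agt (9.34), Ephx2 (6.93) and Cd3e (6.53) read lower than on every other high-salt array. A further 6 belonged to low-salt replicate 2, where Sec16b (10.12), Slc6a6 (10.50) and Acadm (14.40) were the highest of the low-salt arrays and Dcn (11.80), Cybb (6.59) and Gclc (15.42) the lowest. The remaining 3 were Cyp1a1 at 10.50 in low-salt replicate 3, Fgb at 5.88 in low-salt replicate 6 and Lum at 7.98 in low-salt replicate 6.

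The salt effect differed between rats given control IgG and rats given the antibody for 128 probes by the limma test of the difference (adjusted p below 0.05). Among the named genes, the effect under control IgG minus that under the antibody was -2.15 for Slc22a13, -1.80 for Spetex2b, -1.59 for Gcgr, -1.35 for Sec16b, -1.31 for Sspo, -1.30 for Slc25a30, -1.22 for Egf and -0.89 for Gclm. It was 1.5 for Postn and 1.11 for Timp2. Both probes of Gcgr that fell gave a called difference. The other, dim Gcgr probe gave -0.19 (limma adjusted p = 0.715) and the second Slc25a30 probe -0.05 (limma adjusted p = 0.956), neither called.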

How the results depend on the processing

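Across 25 alternatives, 66 named genes gave 1630 values, of which 1464 stayed past the threshold, 166 lost it and 0 reversed, and 37 genes were called in all alternatives tried on them. The 1619 calls became 758 (461 higher, 297 lower) after median scaling and 490 (247 higher, 243 lower) with the 12 arrays fitted alone. The 174 calls above 2-fold became 43 without background correction and 88 with detection on all 24 arrays. The 84 calls beyond 1.2-fold became 3 without background correction, 18 without a filter, 50 with detection on all 24 arrays, 189 with array weights, 148 with brightness and 134 with medullary genes as a covariate, and 0 with the 12 arrays alone, where limma treat gave 844 at an unadjusted p below 0.05 and limma without a minimum fold gave 490. The ratio of calls between the brightest and dimmest class was 4.23 without background correction, 0.964 after median scaling and 1.44 with the 12 arrays alone.

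The 50 calls shared with the antibody comparison became 82 on the authors' scores, 29 without a filter, 367 with array weights, 101 with brightness, 83 with medullary genes and 160 without the outlying pair. The 128 called differences became 318 (median scaling), 73 (authors' scores), 57 (no filter) and 229 (detection p below 0.01 on all 24 arrays). They became 1192 (array weights), 240 (brightness), 331 (medullary genes) and 212 (without the outlying pair). The replicate block gave 1494 calls and 27 called differences. The values of the series matrix were identical to the authors' scores, so that alternative gave the same results. The causes were not tested.

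Of the 66 named genes, between 1 (without high-salt replicate 3) and 15 (without high-salt replicate 5) lost their call when a single array was left out. Leaving out single arrays gave 1065 to 1879 calls (514 to 893 higher, 549 to 986 lower), 7 to 264 beyond 1.2-fold, 38 to 94 shared calls and 26 to 365 called differences. The count beyond 1.2-fold was 7 without high-salt replicate 2 or 5, 33 without high-salt replicate 4, 16, 55 and 29 without low-salt replicates 1, 3 and 5, and 264 without high-salt replicate 3. The called differences were 55, 365, 78 and 46 without high-salt replicates 2 to 5, and 26, 221, 70, 71 and 240 without low-salt replicates 1, 2, 4, 5 and 6. The difference in detected probes ranged from 288.4 to 502.1 and gave 473.3 at a detection p of 0.01, where it missed the threshold (adjusted p = 0.0693, exact permutation test). The difference in the log2 95th percentile, -0.14 with all arrays, ranged from -0.248 to 0.0471, turning to 0.0471 without high-salt replicate 1. In the dimmest class the median probe was detected on 16 of 24 arrays.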

Other observations

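Genes of the cell cycle, which the lists above do not hold, were mostly higher in the 8% NaCl kidneys. A textbook list of 30 such genes was written down after the values were seen, so its counts are a description. Of 23 tested members 15 were called higher, where 6.74% of all tested probes were, and 0 lower (limma), 22 had a log2 difference above 0 and the median was 0.59. Rrm2, a subunit of ribonucleotide reductase, was 1.60 higher, the mitotic kinase Cdk1 1.43, the cyclins Ccna2 1.37 and Ccnb2 1.17, and the replication helicase subunits Mcm6 0.66 and Mcm2 0.54 (limma adjusted p between 9.8e-04 and 0.00871). Pcna differed by 0.10 and Tyms by -0.10, neither called. Under the antibody the median was 0.36 and 3 members, Cdk1, Cks2 and Ccnb2, were called higher.

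Genes of tissue macrophages split in a similar after-the-fact list. Of 7 tested, Mrc1 (1.5), Ms4a4a (1.45), Folr2 (1.25) and Clec10a (1.08) were called higher in the 8% NaCl kidneys, where 6.74% of all tested probes were. Lyve1 differed by 0.25, F13a1 by 0.01 and Adgre1 by -0.37, none of them called. A second fibrinogen chain, Fgg, was 1.15 higher under control IgG and 1.30 under the antibody (limma adjusted p = 0.0406 under control IgG and 0.0682 under the antibody). Among 14 tested glutathione transferases, Mgst2 (1.81) and Gstm1 (1.22) were called higher, and Gsta3 (-0.69) and Gstt2 (-0.40) lower. Of all tested probes 6.74% were called higher and 7.3% lower. Of the 14 transferases 5 had a log2 difference above 0, and the median was -0.21.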
